A study of Homo sapiens with 5 samples.

Results

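The 10 genes described here encode chromatin demethylases that consume oxygen: the histone demethylases KDM2A, KDM3A, KDM4A, KDM4B, KDM4C, KDM5B and KDM6B, and the DNA demethylases TET1, TET2 and TET3. They were chosen by name from 20163 protein-coding genes, not from the peaks, but with earlier results of these data known. Every ChIP-seq peak that touched a gene or its 50-kb flanks was taken, on the human genome build hg19. The study mapped the binding sites of the transcription factors Nrf2 and HIF1α in BEAS-2B cells, an immortalized line of human bronchial epithelial cells. All cells were starved in serum-free medium overnight, and were then collected after 6 h with 1 μM inorganic arsenic (iAs) or, as controls, without it. Each factor had 1 library without iAs and 1 with iAs, and 1 input DNA library had no peak list used here. With 1 library per condition there was no replicate check, so no difference between conditions was tested, and the lists hold peak positions only, without heights or read depth.

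These enzymes share a mechanism. Each uses iron, molecular oxygen and 2-oxoglutarate, a metabolite of the TCA cycle, to hydroxylate a methyl group. The KDM proteins named above do so on histone lysines with a Jumonji C (JmjC) domain, and the TET proteins oxidize 5-methylcytosine in DNA. The prolyl hydroxylases that mark HIF1α for degradation belong to the same enzyme class, and some JmjC genes, KDM3A and KDM4B among them, are well-known targets of HIF1α in hypoxia. HIF1α binds DNA with its partner ARNT at the core sequence ACGTG or GCGTG. Nrf2 binds with small Maf proteins at antioxidant response elements, written TGACNNNGC, which often contain TGACTCA.

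With iAs, HIF1α peaks were found in or within 50 kb of all 10 genes, against 68.6% of all protein-coding genes. The only peak of KDM4A lay beyond its end, and in gene bodies alone 9 genes had a HIF1α peak with iAs. The share of all genes by that narrower measure was not computed. Of the 10 genes, 8 had one within 1 kb of the canonical transcription start site (TSS), against 43.1%. Without iAs, 6 genes had a HIF1α peak (45.5%), 4 of them at the TSS (16.9%), namely KDM3A, KDM4B, KDM4C and KDM5B. Nrf2 peaks with iAs were found at 3 genes, KDM2A, KDM4B and KDM6B (35.0%), and at the canonical TSS of KDM4B alone (5.24%). In all, 50 of the 29781 peaks lay in the windows of the 10 genes, in 36 of the 21086 regions made by merging overlapping peaks of the 4 libraries.

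Of the 10 control HIF1α peaks around these genes, 9 held the HIF core ACGTG, against 31.7% of that list. The sequences below were read from the hg19 genome, 5′ to 3′, and are shown because they lie under the HIF1α peaks that were already present without iAs. Not every match in these peaks is printed. Capitals mark the core, which on the other strand reads CACGT, and CACGTG is the palindrome that holds the core on both strands. For KDM6B and TET3 the whole control peak is given, and for the other genes the core with its flanks.
KDM3A, 648 bp upstream of the TSS, chr2:86667833-86667860, plus strand: acgatcagtacCACGTGcgcctgcgcct
KDM4B, 520 bp upstream, chr19:4968572-4968636, plus strand: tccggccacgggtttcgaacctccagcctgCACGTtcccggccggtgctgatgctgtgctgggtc
KDM4B, 484 bp upstream, chr19:4968608-4968672, plus strand: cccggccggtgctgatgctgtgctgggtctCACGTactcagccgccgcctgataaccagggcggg
KDM4C, 76.7 kb upstream, chr9:6681253-6681318, plus strand: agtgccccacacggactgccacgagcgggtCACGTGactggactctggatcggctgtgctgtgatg
KDM4C, 41.6 kb upstream, chr9:6716391-6716456, plus strand: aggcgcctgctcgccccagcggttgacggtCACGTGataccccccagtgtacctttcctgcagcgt
KDM6B, whole peak in intron 1, chr17:7738917-7739122, plus strand: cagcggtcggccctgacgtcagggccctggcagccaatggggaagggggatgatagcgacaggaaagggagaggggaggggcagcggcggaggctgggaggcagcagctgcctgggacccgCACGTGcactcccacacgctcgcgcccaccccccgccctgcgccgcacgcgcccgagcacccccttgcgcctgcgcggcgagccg
KDM6B, whole peak in intron 1, chr17:7740156-7740379, plus strand: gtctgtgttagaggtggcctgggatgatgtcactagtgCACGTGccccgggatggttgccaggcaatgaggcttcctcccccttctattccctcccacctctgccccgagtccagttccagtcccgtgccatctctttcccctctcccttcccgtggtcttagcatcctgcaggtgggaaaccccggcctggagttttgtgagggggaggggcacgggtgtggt
TET3, whole peak downstream of the gene, chr2:74347413-74347650, plus strand: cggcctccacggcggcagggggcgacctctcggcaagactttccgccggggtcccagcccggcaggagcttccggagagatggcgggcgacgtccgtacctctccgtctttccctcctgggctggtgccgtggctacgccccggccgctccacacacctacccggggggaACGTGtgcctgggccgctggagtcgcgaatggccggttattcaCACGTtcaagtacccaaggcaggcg
The remaining control peaks with the core lay at the TSS of KDM4C and downstream of KDM6B, and the control peak in exon 1 of KDM5B held no ACGTG.

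The number of genes with a peak was set beside that over all protein-coding genes. For Nrf2, 2 of the 10 genes had a control peak in the gene body or within 50 kb, against 20.0% of all protein-coding genes, and 3 of 10 had a peak with iAs, against 35.0%. For HIF1α, the counts were 6 of 10 in control cells against 45.5%, and 10 of 10 with iAs against 68.6%. Thus the Nrf2 counts and the control HIF1α count were near the background. The HIF1α count with iAs was above it, with KDM4A counted by a peak beyond its end. The 10 genes are long, from 20.6 kb (KDM6B) to 455 kb (KDM4C), with a median of 129 kb against 27.2 kb for all protein-coding genes. Among the 11131 protein-coding genes in that range of length the shares were little different, at 22.1% and 38.9% for Nrf2 and 46.9% and 72.0% for HIF1α, without and with iAs. Within 1 kb of the TSS, no gene of the 10 had a control Nrf2 peak (2.36% of all genes with a canonical TSS did), and 1 had an Nrf2 peak with iAs (5.24%). HIF1α peaks at the TSS were found at 4 of 10 genes in control cells (16.9%) and at 8 of 10 with iAs (43.1%).

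**Figure D1:**
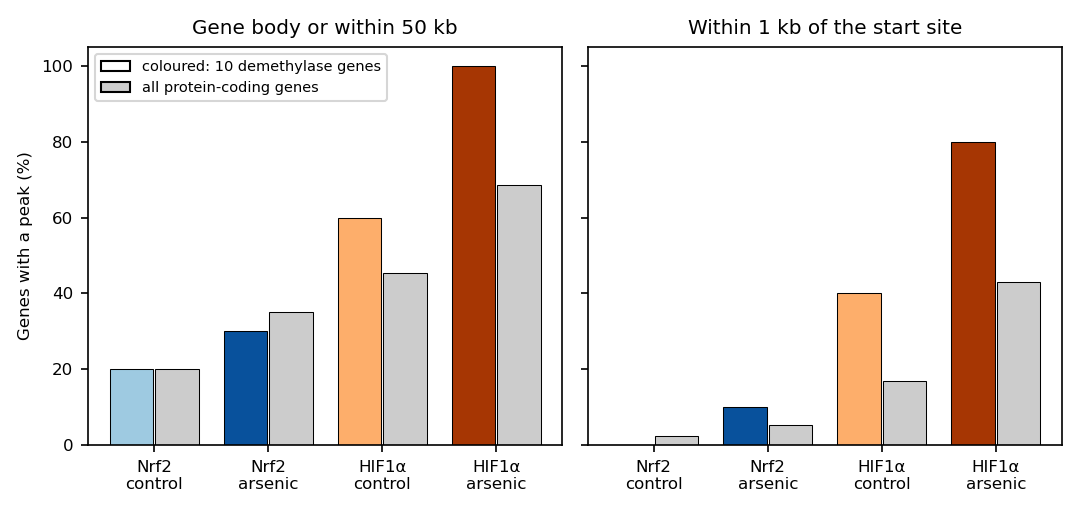
Share of genes with a peak (%, bars from 0) in each of the 4 libraries, for the 10 demethylase genes (coloured) and all protein-coding genes (grey), in the gene body or within 50 kb (left) and within 1 kb of the TSS (right). The coloured bars stand above the grey ones for HIF1α in both panels (8 of 10 genes against 43.1% at the TSS with iAs), and there is no error bar because each bar is 1 library.

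Counted per length of genome, which takes out the size of the windows, HIF1α peaks were denser around the 10 genes than around protein-coding genes in general. The windows of the 10 genes cover 2.38 Mb and those of all protein-coding genes 1881 Mb. Control HIF1α peaks numbered 10 in the windows of the 10 genes, or 4.20 per Mb against 2.89 over all. With iAs there were 32 HIF1α peaks, or 13.4 per Mb against 6.68. Nrf2 peaks were sparser than over all genes, with 2 control peaks (0.840 per Mb against 1.35) and 6 peaks with iAs (2.52 per Mb against 3.28). Not every peak in a window was closest to the gene it was counted for: the nearest canonical coding TSS was that of the demethylase gene for 21 of the 32 HIF1α peaks with iAs, 7 of the 10 in control cells, 4 of the 6 Nrf2 peaks with iAs and 1 of the 2 in control cells. The genome-wide HIF1α list itself grew from 6008 to 12826 peaks with iAs and the Nrf2 list from 3204 to 7743, and the part of list length in the counts with iAs was not tested.

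At the TSS the 10 genes fell into 4 patterns. KDM2A, TET1, TET2 and TET3 had a HIF1α peak in iAs-treated cells and in no other library, the pattern of 26.4% of all genes with a canonical TSS. KDM3A, KDM4C and KDM5B had HIF1α with and without iAs and no Nrf2 (12.3% of all genes). KDM4B had HIF1α in both conditions and Nrf2 with iAs, a pattern it shared with 286 genes including itself (1.44%). KDM4A and KDM6B had no peak within 1 kb of the TSS in any library, as had 54.3% of all genes.

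**Figure D2:**
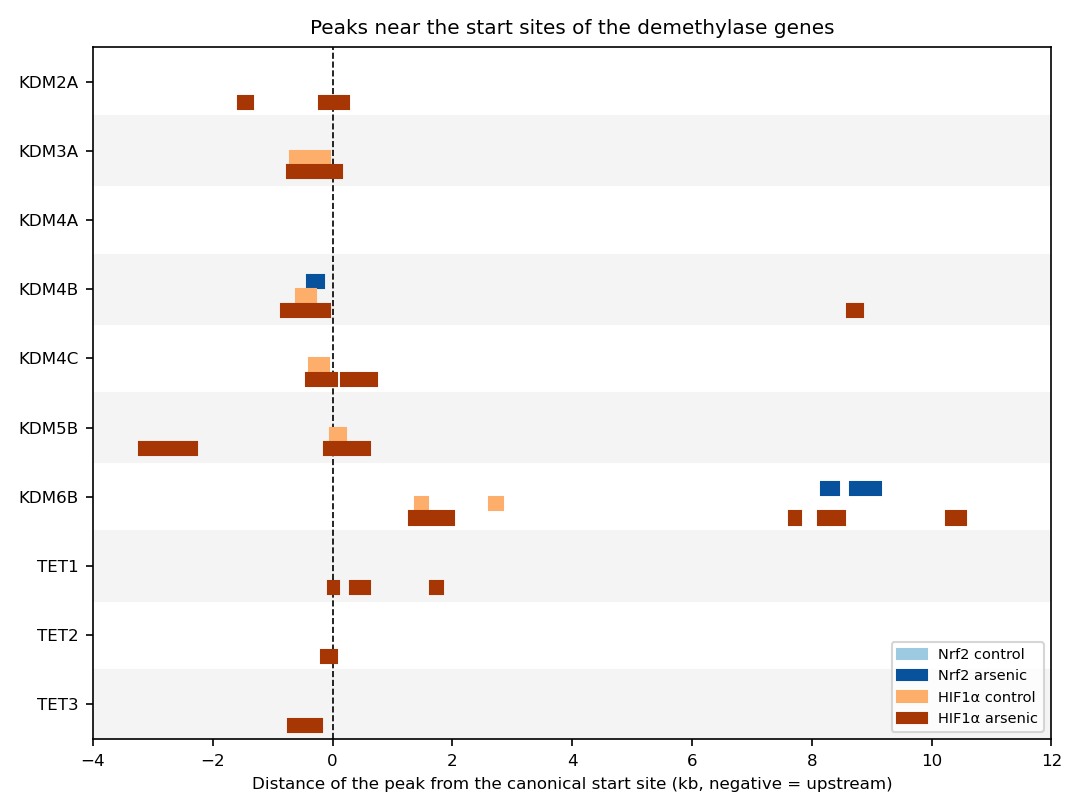
Peaks from 4 kb upstream to 12 kb downstream of the canonical TSS of each gene (x axis in kb, negative upstream, drawn to scale), with 1 row per gene and 1 colour per library. HIF1α peaks with iAs lie at or beside the TSS of 8 genes, 4 of these also have a control HIF1α peak, KDM6B has its peaks inside the gene, and KDM4A has none in this range.

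Among the histone demethylases, KDM3A removes mono- and dimethylation from H3K9. KDM3A (chromosome 2, 86667770 to 86719839, plus strand) had 1 HIF1α peak in each condition and nothing else within 50 kb. The control peak spanned 661 bp (86667792 to 86668452, centre 372 bp upstream of the TSS) and was wider than 98.3% of the control HIF1α list. With iAs the peak spanned 919 bp (86667731 to 86668649) and covered the control peak whole. The width ratio was 1.39, close to the median of 1.47 over the 3254 overlapping pairs of HIF1α peaks in the lists. The 28-base element shown above lies in both peaks.

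The KDM4 enzymes remove trimethylation from H3K9 and H3K36, and the 3 genes had different peak sets. KDM4B (chromosome 19, 4969124 to 5153609, plus strand) was the gene where peaks of both factors met at the TSS. Its control HIF1α peak spanned 340 bp (4968516 to 4968855) and its HIF1α peak with iAs 821 bp (4968264 to 4969084), a ratio of 2.42. An Nrf2 peak of 288 bp appeared in the list with iAs (4968697 to 4968984, centre 284 bp upstream), lay entirely inside the HIF1α peak with iAs, and shared 159 bp with the control HIF1α peak. No Nrf2 peak was called there in control cells, where the closest Nrf2 peak was 156 kb away. The Nrf2 peak held neither TGACTCA nor TGACNNNGC, and it held 1 CACGTG, 239 bp upstream of the TSS. A further HIF1α peak with iAs, 269 bp wide, lay in intron 1, 8.73 kb past the TSS.

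KDM4C (chromosome 9, 6720863 to 7175648, plus strand) had HIF1α peaks only, 3 in control cells and 5 with iAs. In control cells they were 474, 406 and 330 bp wide and were centred 76.9 kb, 41.6 kb and 0.232 kb upstream of the canonical TSS. All 3 were overlapped by a peak with iAs, of 633, 387 and 521 bp. The 2 further peaks with iAs were 1 of 594 bp in intron 1, centred 443 bp past the TSS, which lay 214 bp from the control peak, and 1 of 221 bp, 53.9 kb upstream, which lay 222 bp from the start of the noncoding RNA LINC02851. The annotated gene begins 37.1 kb upstream of its canonical TSS, so the peak at 41.6 kb lies 4.50 kb before the outermost annotated start, whose position differs between transcripts. The most distant peak was closer to the canonical TSS of GLDC, at 35.4 kb, than to that of KDM4C.

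KDM4A (chromosome 1, 44115820 to 44171189, plus strand) had the sparsest window together with TET2. Its 1 peak, HIF1α with iAs, was 194 bp wide (44173194 to 44173387), narrow for that list, in which 6.06% of peaks were narrower. It lay 2.10 kb past the end of KDM4A and was centred 83 bp inside ST3GAL3, a neighbouring sialyltransferase gene, so no peak of either factor was found in KDM4A itself.

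KDM2A, which removes mono- and dimethylation from H3K36 (chromosome 11, 66886734 to 67025553, plus strand), had no HIF1α peak in control cells and 4 with iAs. The first, of 501 bp (66886503 to 66887003), lay across the TSS with its centre in exon 1, and another of 242 bp was centred 1.46 kb upstream. The other two, of 425 and 628 bp, lay beyond the gene, 571 bp from the TSS of ANKRD13D and 44 bp from that of SSH3. None of the 4 held ACGTG, but the peak across the TSS held 3 matches to GCGTG and the one near SSH3 held 2. The gene body also carried Nrf2 peaks, described below.

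KDM5B removes methylation from H3K4 (chromosome 1, 202693623 to 202777615, minus strand). Its control HIF1α peak of 265 bp (202777328 to 202777592) lay in exon 1, centred 89 bp past the TSS. With iAs the peak there spanned 773 bp (202776919 to 202777691), a ratio of 2.92 that was larger than in 87.4% of the HIF1α pairs. A second peak with iAs, 2.75 kb upstream, was the widest of all 50, at 973 bp (202779813 to 202780785), and was wider than 96.3% of its list. It was centred 321 bp from the start of PCAT6, a noncoding RNA gene, and held 5 matches to ACGTG, where the peak in exon 1 had none in either condition. GCGTG was matched 3 times in the exon 1 peak with iAs and 1 time in the upstream peak, but not in the control peak.

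KDM6B, also called JMJD3, removes methylation from H3K27, the mark of Polycomb repression. It was the shortest of the 10 genes (chromosome 17, 7737535 to 7758114, plus strand) and had the most peaks, 12 in all. In control cells 2 HIF1α peaks lay in intron 1, of 206 bp (centre 1.48 kb past the TSS) and 224 bp (2.73 kb), and another of 489 bp lay 31.2 kb past the gene end, 2.75 kb upstream of the TSS of the chromatin remodeller gene CHD3. The 2 in intron 1 were centred 632 and 467 bp from the starts of noncoding RNA genes. The 206-bp peak was overlapped by one of 753 bp with iAs (7738813 to 7739565), a ratio of 3.66 that exceeded 92.9% of the HIF1α pairs. The 224-bp peak (7740156 to 7740379) was the only control peak of the 12 around the 10 genes, both factors counted, with no overlapping peak of the same factor with iAs. The nearest ended 591 bp away. For HIF1α alone, 9 of the 10 control peaks overlapped a peak with iAs, against 3226 of 6008 in the list. Both control peaks in intron 1 held 1 CACGTG, as printed above. With iAs, 3 more HIF1α peaks of 208, 454 and 334 bp lay in intron 2, between 7.72 and 10.4 kb past the TSS, and 1 of 349 bp lay past the gene end, 371 bp from the TSS of NAA38. Those in intron 2 lay 2.03 to 4.72 kb past another annotated start of KDM6B. The control peak near CHD3 was overlapped by 2 peaks with iAs, of 394 and 487 bp, by 9 and 341 bp.

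Each TET gene had a HIF1α peak at its TSS with iAs and none without, as had KDM2A among the histone demethylases. TET1 (chromosome 10, 70320094 to 70454244, plus strand) had 5 HIF1α peaks with iAs, of 266, 188, 332, 223 and 316 bp. Of these, 3 lay at the start of the gene, centred 22 bp, 451 bp and 1.74 kb past the TSS, and the other two lay at the starts of neighbouring genes, 111 bp from the TSS of SLC25A16 and 25 bp from that of CCAR1. The peak over the TSS was the narrowest of the 50 at 188 bp, and no peak in that list was narrower. The control HIF1α peak nearest to those 3 was 339 kb away. None of the 5 peaks held ACGTG, and only the one near CCAR1 held GCGTG, with 2 matches.

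TET2 (chromosome 4, 106067032 to 106200973, plus strand) had 1 peak, HIF1α with iAs, 261 bp wide (106067849 to 106068109) and centred 54 bp upstream of the canonical TSS. It held 1 match to ACGTG, 106 bp upstream of the TSS, and the closest control HIF1α peak was 327 kb away. TET3 (chromosome 2, 74212037 to 74335303, plus strand) had 4 HIF1α peaks with iAs. The peak at the TSS spanned 564 bp (74211296 to 74211859, centre 460 bp upstream), and a second of 247 bp in intron 2 was centred 83 bp from an alternative start of TET3. Another of 478 bp lay 78 bp from the TSS of BOLA3. The last, of 402 bp, lay 12.2 kb past the gene end and was the only one with a control peak, of 238 bp, whose sequence is printed above; its centre was 276 bp from the start of the pseudogene FNBP1P1.

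**Figure D3:**
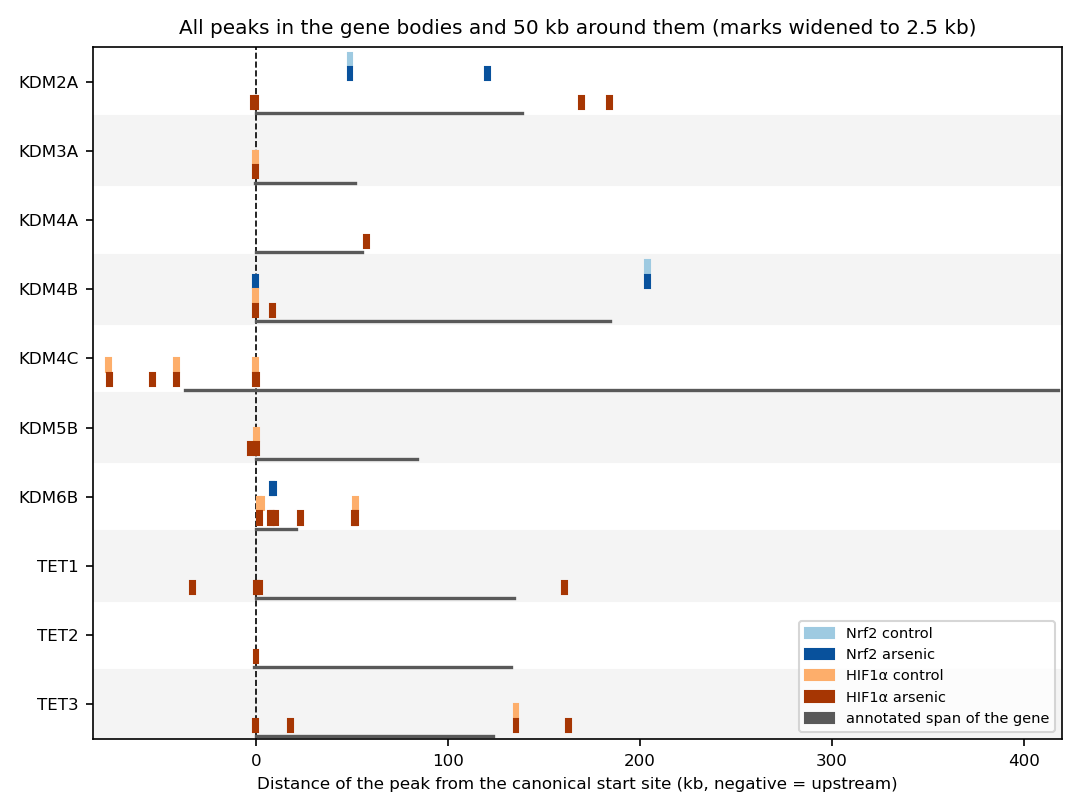
All 50 peaks in the gene bodies and the 50 kb around them (x axis in kb from the canonical TSS, negative upstream), with 1 row per gene, 1 colour per library and a grey line for the annotated span of the gene. Marks are widened so that they can be seen. The long interiors of the genes hold few peaks, with Nrf2 inside KDM2A (48.9 and 121 kb) and peaks beyond the gene ends of KDM2A, KDM4A, KDM4B, KDM6B, TET1 and TET3.

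Nrf2 was present at 5 positions outside the KDM4B promoter. Of these, 2 had a peak in both conditions: intron 2 of KDM2A, 48.9 kb past the TSS, where the control peak measured 394 bp (66935446 to 66935839) and the iAs peak 536 bp (66935422 to 66935957), and a position 19.7 kb past the end of KDM4B, where they measured 424 bp (5173080 to 5173503) and 796 bp (5172809 to 5173604). Peaks with iAs only lay in intron 12 of KDM2A (248 bp, centred 1 bp from an alternative annotated start of the gene) and in intron 2 of KDM6B, where 2 peaks of 303 and 524 bp were centred 8.31 and 8.90 kb past the TSS. These 2 peaks were 2.6 and 3.2 kb past the other annotated start of KDM6B. The 303-bp peak (7745696 to 7745998) lay whole within the 454-bp HIF1α peak with iAs, and the 524-bp peak (7746175 to 7746698) overlapped no HIF1α peak. For KDM6B the nearest control Nrf2 peak was 1993 kb away. An Nrf2 peak present with iAs and not in control cells was thus found 4 times in 6, at 3 genes of 10 (KDM2A, KDM4B and KDM6B), against 25.4% of all protein-coding genes. The whole list had 3039 overlapping pairs for 7743 peaks with iAs, so most of its peaks had no control peak either.

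A sequence that matches the Nrf2 element is shown next for 1 position of each gene, so that it can be compared with the element itself. The match in the KDM2A peak of intron 12 (67007550 to 67007558) is not printed. Capitals mark the match to TGACNNNGC, and the strand is the one on which it reads.
KDM6B, 524-bp peak with iAs, intron 2, chr17:7746367-7746433, minus strand: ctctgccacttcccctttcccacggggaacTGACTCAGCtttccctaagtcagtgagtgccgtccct
KDM2A, peaks in both conditions, intron 2, chr11:66935440-66935508, minus strand: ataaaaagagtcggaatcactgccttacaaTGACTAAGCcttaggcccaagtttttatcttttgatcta
KDM4B, peaks in both conditions, downstream, chr19:5173247-5173315, plus strand: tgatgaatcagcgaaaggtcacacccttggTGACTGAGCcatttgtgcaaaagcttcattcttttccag
The KDM6B element alone also holds TGACTCA, and so TGACTCA was present in 1 of the 6 Nrf2 peaks with iAs, against 51.5% of the 7743 in the list, and in neither of the 2 control peaks, against 58.4% of 3204. TGACNNNGC was present in 4 of 6 peaks with iAs (44.2% of the list) and in both control peaks (51.3%). The KDM6B match lay 36 bp from the peak centre and the KDM4B match 10 bp from the centre of the control peak, whereas the KDM2A match lay 168 bp from it, near the edge of the control peak. In the HIF1α lists, TGACTCA was found in 5 of the 32 peaks with iAs around the 10 genes (4.38% of the list), at KDM3A, KDM5B, KDM6B and 2 peaks of KDM4C, and in 1 of the 10 control peaks (18.0%).

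For HIF1α, 22 of the 32 peaks with iAs had no counterpart in control cells. In the whole list this held for 9651 of 12826 peaks, a somewhat larger share. The 22 peaks lay at 9 of the 10 genes, KDM3A being the exception, against 59.6% of all protein-coding genes with such a peak. By region, 21 of the 36 regions held HIF1α with iAs alone (58.3%, against 43.6% of all 21086 regions) and 8 held HIF1α in both conditions without Nrf2 (22.2% against 11.5%). Nrf2 with iAs alone made up 2 of the 36 regions (5.56%), against 16.7% of all. One region each held HIF1α in control cells alone, Nrf2 with HIF1α in iAs-treated cells, and the 3-library combination at the KDM4B promoter, and 2 held Nrf2 in both conditions.

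The share of HIF1α peaks with the HIF core ACGTG differed between those with and without a control peak. ACGTG was searched on both strands over the whole peak. It was present in 9 of the 10 control peaks around the demethylase genes, against 31.7% of the 6008 in the list, with 6.06 matches per kb of peak against 1.72. Of the 10 peaks with iAs that overlapped a control peak, 9 held it, against 47.2% of 3175 such peaks in the list, with 5.09 matches per kb against 1.73. Of the 22 peaks with iAs and no control peak, 3 held it (13.6%), against 29.5% of 9651, with 0.847 matches per kb against 1.30. These 3 were the upstream peak of KDM5B, the TET2 peak and the TET3 peak beside BOLA3. The peaks around the 10 genes were somewhat wider, with medians of 335 bp against 276 bp, 577 bp against 481 bp, and 324 bp against 312 bp in these 3 classes. Within 100 bp of the peak centre the counts were 7 of 10 control peaks (23.6% of the list), 7 of 10 with a control peak (24.0%) and 3 of 22 without (18.1%). Neighbouring peaks of 1 gene and overlapping peaks of both conditions share the same bases, so the peaks are not independent.

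The palindrome CACGTG was present in 6 of the 10 control peaks, against 10.2% of the list, in 8 of the 10 peaks with iAs that had a control peak (17.6%) and in 1 of the 22 without (9.51%). Within 100 bp of the centre the counts were 4 of 10 control peaks (6.89% of the list), 1 of 10 (6.93%) and 0 of 22 (5.41%). Each CACGTG counts as 2 matches to ACGTG. The second HIF core, GCGTG, was present in 6 of 10 control peaks (43.1% of the list), in 9 of the 10 peaks with iAs that had a control peak (69.4%) and in 11 of the 22 without (58.4%). Within the library with iAs its density was 3.45 and 2.18 matches per kb in these last classes, against 2.98 and 2.87 in the list. With either core counted, 22 of the 32 HIF1α peaks with iAs held a match, against 71.6% of the list. Of the 10 that lay at a TSS, 8 did, against 73.1% of such peaks. In control cells either core was present in 9 of 10 peaks, against 58.5%.

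**Figure D4:**
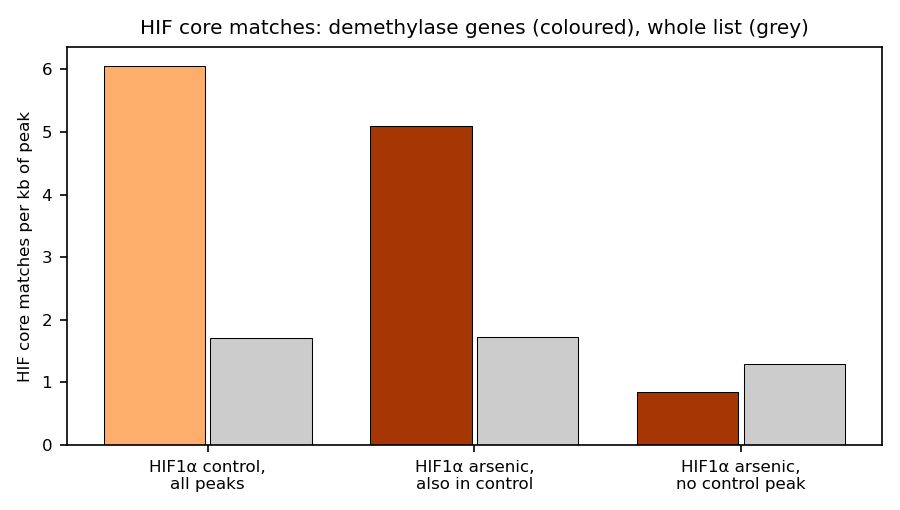
Matches to ACGTG per kb of HIF1α peak (bars from 0, both strands), for the peaks around the 10 genes (coloured) and all peaks of the same class (grey). The first 2 classes reach 6.06 and 5.09 per kb against 1.72 and 1.73, and the peaks with iAs and no control peak 0.847 against 1.30; no error bar is drawn because each bar is 1 library.

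For comparison, promoter windows of 300 bases, mostly upstream of the start of each gene (RefSeq, GRCh38.p14, all 10 genes matched), held ACGTG in 4 of the 10, KDM4B, KDM4C, TET2 and TET3, against 21.4% of 35116 promoters. The same 4 held CACGTG (7.26%). In the TET2 window the 2 matches to ACGTG were those of its 1 CACGTG, so it lacked the ACGTG found 106 bp upstream of the canonical TSS. The RefSeq start used for TET2 may therefore differ from the canonical one. GCGTG was present in 8 of 10 (36.5%), all but TET1 and TET2, and TGACTCA in KDM4C alone (4.95%). The 35116 promoters are a larger set than the 19856 genes with a canonical TSS used for the peak shares. The windows of the 10 genes ranged from 47.7% GC (TET2) to 82.7% (TET3), and the part of base composition in these counts was not tested. The TET3 promoter window held 4 matches to ACGTG and 1 to GCGTG. The HIF1α peak called at the TET3 TSS, whose edge lies 178 bp from that TSS, held no ACGTG and 2 matches to GCGTG. Whether the RefSeq start used for TET3 is the canonical one was not tested.

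Where both conditions had a peak, the peak with iAs was usually the wider, as in the lists as a whole. Of the 10 overlapping HIF1α pairs around these genes, 7 were wider with iAs, with a median ratio of 1.48, against 76.9% and a median of 1.47 for all 3254 pairs. The 3 pairs that were not wider were the KDM4C pair 41.6 kb upstream (406 and 387 bp, ratio 0.953) and both pairs near CHD3 (489 bp in control cells, ratios 0.806 and 0.996). The remaining ratios were 1.34 for the distant KDM4C pair, 1.58 at the KDM4C TSS and 1.69 for the pair past TET3. The 2 Nrf2 pairs had ratios of 1.36 at KDM2A and 1.88 at KDM4B, on either side of the median of 1.67 over 3039 Nrf2 pairs, of which 91.9% were wider with iAs.

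**Figure D5:**
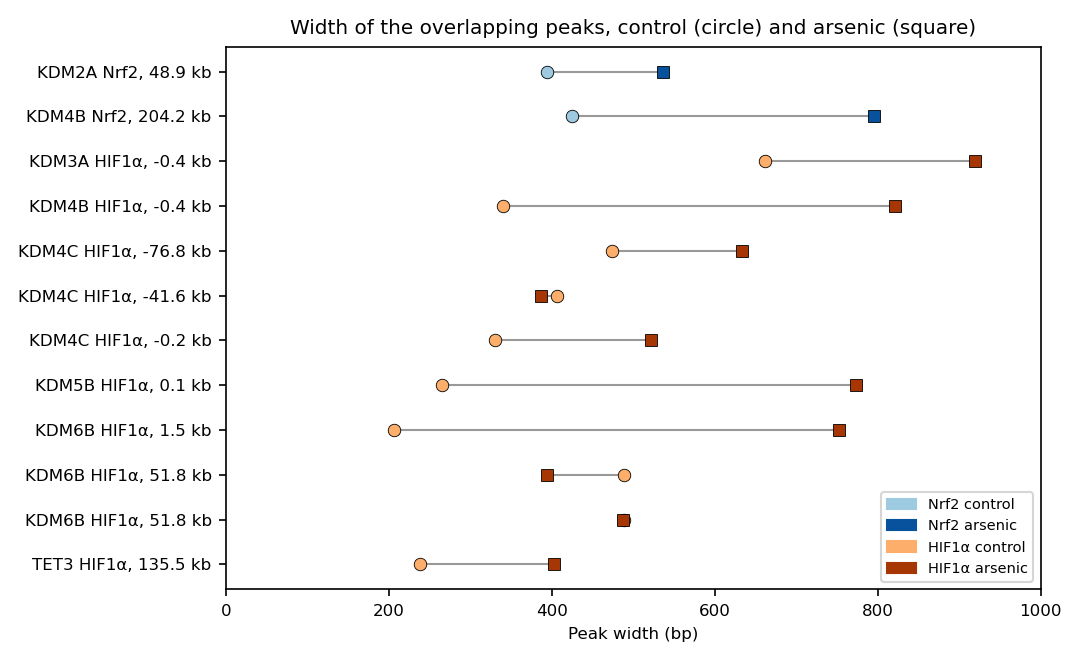
Width in bp of the 12 pairs of overlapping peaks, control (circle) and iAs (square), labelled by gene, factor and distance of the control peak from the TSS. The longest lines are those of KDM6B intron 1 (206 to 753 bp), KDM5B (265 to 773 bp) and KDM4B (340 to 821 bp), and both pairs near CHD3 and the KDM4C pair at 41.6 kb are as wide or wider in control cells.

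Other genes of the same chemistry were read in the same way. Of 13 other JmjC genes (KDM2B, KDM3B, JMJD1C, KDM4D, KDM5A, KDM5C, KDM6A, KDM7A, PHF8, PHF2, KDM8, RIOX1 and RIOX2), HIF1α was within 1 kb of the TSS at 11 with iAs and at 3 in control cells, beside 8 and 4 of the 10. Nrf2 was found at the TSS of PHF8 alone, in both conditions, with widths of 309 and 458 bp beside HIF1α peaks of 278 and 719 bp. No gene of the lists compared here shared the pattern of KDM4B. The flavin-dependent demethylase genes KDM1A and KDM1B, whose enzymes also need oxygen but not 2-oxoglutarate, both had a HIF1α peak with iAs at the TSS, and KDM1A also had one in control cells. Of 5 genes that write or process DNA methylation (DNMT1, DNMT3A, DNMT3B, TDG and UHRF1), all had a HIF1α peak at the TSS with iAs and none there in control cells, the same pattern as the 3 TET genes. It was also the pattern of most of the 13 other JmjC genes and of 26.4% of all genes with a canonical TSS. In the wider window, 3 of these 5 genes had a control HIF1α peak.

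The established targets of each factor served as a check of the antibodies' lists. All 4 Nrf2 loci examined (NQO1, GCLM, TXNRD1 and SRXN1) had Nrf2 peaks in both conditions within the window, and at NQO1 the Nrf2 peak at the TSS spanned 1787 bp without iAs and 2455 bp with it. The widest Nrf2 peak at the TSS was 232 bp without and 1451 bp with iAs at GCLM, 431 and 912 bp at SRXN1, and 361 bp with iAs at TXNRD1, which had none in control cells. The 8 Nrf2 peaks around the demethylase genes ranged from 248 to 796 bp, and only 1 lay at a canonical TSS. That peak, at KDM4B with iAs, spanned 288 bp and was narrower than the widest TSS peak of each of the 4 loci with iAs. The widest of the 8, of 796 bp with iAs, was narrower than those of NQO1, GCLM and SRXN1 and wider than that of TXNRD1. Without iAs the 2 peaks, of 394 and 424 bp, lay between GCLM and SRXN1 in width. Of the 4 HIF1α loci (CA9, ANKRD37, PDK1 and BNIP3), 3 had a HIF1α peak in the window in control cells and all had one with iAs. At the TSS, ANKRD37 had 1028 and 1642 bp and PDK1 205 and 1244 bp without and with iAs, beside 661 and 919 bp at KDM3A. BNIP3 had a HIF1α peak of 378 bp at the TSS with iAs only, and CA9 had none there in either condition. With iAs, HIF1α was thus at the TSS of 3 of the 4 HIF1α loci, and also of all 4 Nrf2 loci. Its presence at the TSS with iAs therefore did not set the HIF1α loci apart from the Nrf2 loci. A peak shows where a factor was found on chromatin and not the expression of the gene, which was not measured in these libraries.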

How the data were processed

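ChIP-seq libraries of Nrf2 and HIF1α from BEAS-2B cells, 1 per factor and condition, were analysed from the peak positions the authors deposited (0-based intervals on hg19, read here as 1-based). The submitters' processing notes name BWA and MACS2 2.1.0. Per the paper's methods, the authors down-sampled tags to the smallest sample of a group and called peaks with MACS or SICER, without stating which caller made each list. The labels name Santa Cruz (Nrf2) and Abcam (HIF1α) antibodies, and the methods Active Motif for both. Read depth is unknown.

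Genes, exons and canonical TSSs came from GENCODE 44 lifted to GRCh37, without the mitochondrial genome (20163 protein-coding genes, 19856 with a canonical TSS). Peaks were assigned by an overlap of at least 1 bp with the gene body and 50 kb on each side, or with 1 kb on each side of the canonical TSS, so a peak may serve several genes. Conditions and factors shared a peak at 1 bp of overlap. Motifs were searched on both strands. All 10 genes were named with every peak; of the comparison lists, counts and genes sharing the TSS pattern of KDM4B. PHF8, NQO1, GCLM, SRXN1, TXNRD1, ANKRD37, PDK1, BNIP3, CA9 and KDM1A were named after their values were seen. A comparison list on 2-oxoglutarate supply is not reported here, and not every motif match is printed. The genes and lists were chosen with earlier results of these data known. Python 3.11.15, NumPy 2.4.6, pysam 0.24.0 and matplotlib 3.10.9 were used, and the assignment was tested on simulated data.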

Additional observations from a re-analysis of the deposited data

How the results depend on the processing

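No paired analysis was possible because each factor and condition had 1 library. Of 70 alternative values, 46 stayed within 1.5 times the reported one, and for the others the cause was not tested beyond the smaller window or list. With the wider 50% of each list, HIF1α peaks with iAs numbered 19, those without a control peak 12 and control HIF1α peaks 6; Nrf2 peaks with iAs numbered 3, of which 1 had no control peak, and no Nrf2 peak stayed at a TSS (0 genes). With the 3204 widest peaks of each list, the same values were 10, 6, 6, 3, 1 and 0, and HIF1α with iAs was at 5 TSSs in place of 8. In gene bodies alone there were 15 HIF1α peaks with iAs, 11 of them without a control peak, 5 control HIF1α peaks and 1 control Nrf2 peak at 1 gene, the last also within 10 kb and by nearest TSS. By nearest TSS, 21 HIF1α peaks with iAs remained, at 9 genes, and those in gene bodies were also at 9 genes. With the TSSs of all basic transcripts, Nrf2 with iAs was at 2 genes (KDM2A and KDM4B). The alternatives chosen after seeing the data were CACGTG, the 100 bases around the centre and the length-matched background. Unknown depth and the lack of replicates limit all counts, and a missing peak does not show absence of binding.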
